A study of Juglans regia with 21 samples.

Results

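MADS-box transcription factors of the walnut seed coat were taken as the genes whose NR or Swiss-Prot description in the deposited table held MADS-box, agamous-like, floral homeotic protein AGAMOUS or floral homeotic protein PMADS, in any case. The rule matched 59 of 31425 genes. RNA was measured in the pellicle, the thin coat around the kernel, of field-grown trees of the *Juglans regia* cultivar Xinwen179. The 7 groups were pellicles aged 8, 9, 11, 13, 15, 17 and 19 weeks from pollination, named 8W to 19W here, and each age has 3 of the 21 libraries. All groups share the cultivar and the field, and the labels name no treatment. No label says if replicate libraries of one age are from different trees. The p-values thus cover the variation among the libraries sequenced, possibly technical only.

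MADS-box proteins bind DNA as dimers and higher complexes through the MADS domain, and the plant type II proteins pair through a keratin-like K-box. In *Arabidopsis*, AGAMOUS and its relative AGL11 (SEEDSTICK) specify carpels, ovules and the seed coat, SEPALLATA proteins such as AGL9 bridge the complexes, and the B-sister protein TT16 acts in the innermost integument layer, where proanthocyanidins accumulate. Type I proteins such as AGL61, AGL62 and AGL80 are known in *Arabidopsis* for the central cell and the endosperm.

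Total counts ran from 13144713 to 17878761 reads per library. The family was read against markers of the tissue and of what else a pellicle sample can hold, as summed CPM scaled by TMM factors, a measure of reads relative to library size. The 29 seed coat proanthocyanidin genes had stage means of 204 to 535 CPM, with 4 to 7 of them at 0 in a stage. The 22 embryo and kernel storage genes, of which 4 to 7 were at 0 in a stage, averaged 20744 CPM in 19W and 272 CPM in 8W libraries. Library 1 of 11W stood apart, with 27721 storage CPM against 14912 and 13082 CPM in the other 11W libraries. The part of kernel RNA in the results below was not tested.

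Members ranged from silent genes to some of the most abundant transcripts of the pellicle. Of the 59 genes, 5 (8.47%) had 0 reads in every library, beside 16.5% of all genes, and 19 (32.2%) had 1 to 100 reads over all 21 libraries together, beside 15% of all genes. Both descriptions matched for 35 genes, Swiss-Prot alone for 20 and NR alone for 4. The table lists the MADS domain for 41 genes and the K-box for 30, with both for 17 and neither for 5. The most abundant genes were mostly short models without a listed MADS domain: the AGL11-like model is 583 bases long, and the AGAMOUS-like model on chromosome 5S is 288 bases long. Levels per length therefore rest on the table's gene models. The genes lie on chromosomes labelled D (36 genes) and S (23 genes), and positions are given as in the table, whose genome build is not given in the sources used here.

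By clade, as the product names place them, the family held 15 type I genes, 7 of the SOC1 clade, 7 of the AGL17 clade, 5 SVP, 5 MIKC-star, 4 SEPALLATA, 4 B and B-sister, 3 AGAMOUS, 3 AGL15/18, 2 AGL6, 2 APETALA1 and 1 AGL12 gene, and 1 gene was not placed. For the AGL82-like genes on 2S and 2D and the AGL104/CMB1-like gene on 3S, the Swiss-Prot name set the clade. Their NR names differ: AGL19, MADS-box transcription factor 50-like and CMB1-like. The 15 type I genes included 4 AGL62-like genes, which had 0 to 17 reads each over all libraries. The 5 genes at 0 reads were an AGL66-like gene (2S), a MADS14-like gene (6D), an AGL19-like gene (6S), an AGL62-like gene (7D) and an AGL80-like gene (7S). The AGL12-like gene (2D), whose *Arabidopsis* namesake acts in the root, had 1 read.

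Per length, the AGL11-like gene (Jr2DG00016900, chromosome 2D, 1495566 to 1498887) was the most abundant of the family. Its deposited FPKM, which is scaled by gene length and library total, averaged 979 over the 21 libraries and ranked 44 among all genes. The AGAMOUS-like gene on 5S (Jr5SG00101700, chromosome 5S, 11497927 to 11502311) followed at 439 FPKM. Next came the AGL9-like gene on 3D (Jr3DG00096400, chromosome 3D, 8827115 to 8832241) at 275 FPKM, the AGAMOUS-like gene on 5D at 260.0, the AGL9-like gene on 3S at 241, the MADS6-like gene on 2D at 178 and the AGL61/AGL29-like gene on 4D at 170.5 FPKM. These 7 were the members at or above 100 FPKM, a level that 1284 genes of the whole table reached, and 15 members reached 10 FPKM. The order was not the same at each stage. In mean FPKM at 8W the AGL9-like gene on 3S (437 ± 38.0, SD, n = 3) stood above the one on 3D (170.3 ± 4.13), while at 17W it stood at 162 ± 3.93 against 459 ± 8.94 for the gene on 3D.

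**Figure D1:**
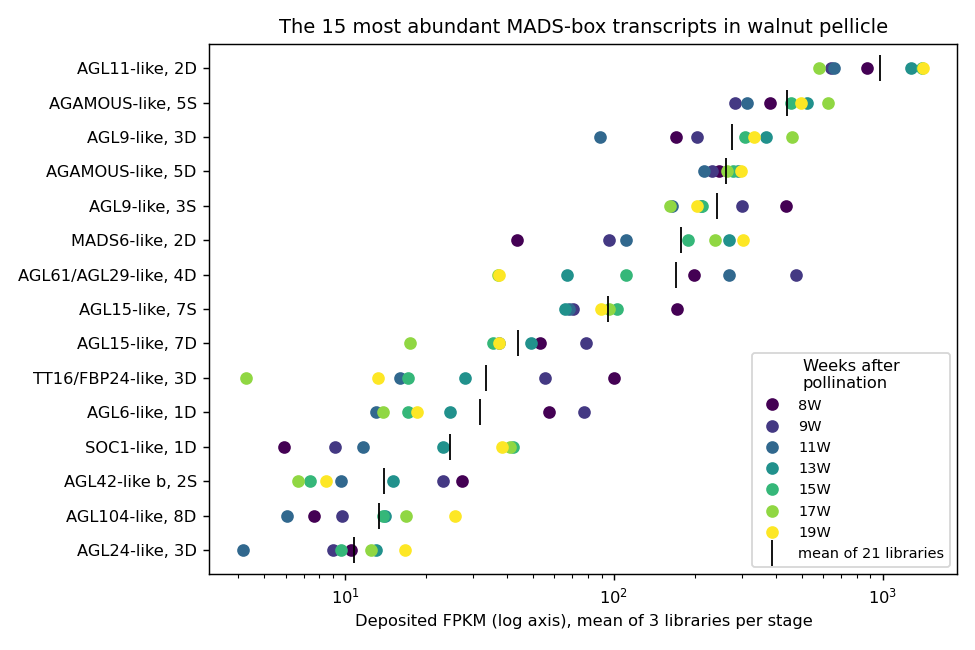
Deposited FPKM (log axis) of the 15 most abundant MADS-box genes, each point the mean of 3 libraries of a stage and each tick the mean of 21 libraries. The AGL11-like gene has the highest mean over all libraries, with stage means of 579.6 to 1417 FPKM, but at 17W the AGAMOUS-like gene on 5S lies above it at 624 FPKM. That order holds per length only: in CPM at 17W the AGL11-like gene averaged 354 and the AGAMOUS-like gene on 5S 189. The TT16/FBP24-like and AGL61/AGL29-like genes spread most widely of the 15.

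Genes named for carpel and ovule factors carried the largest share of the family's transcripts. The 3 AGAMOUS-clade genes held 57.5% of the summed family FPKM on average (42.4 to 66.2% by library), and the AGL11-like gene alone 21.2 to 43.8%. SEPALLATA genes held 18%, AGL6 genes 7.18%, type I genes 6.76% and AGL15/18 genes 4.96%. The type I share ran from 0.952 to 20.1% between libraries. Summed over the family, FPKM was lowest at 11W, at 2042 ± 307, and its highest mean was that of 19W, at 3396 ± 70.8 (SD, n = 3), with libraries that overlapped those of 13W and 15W. At 11W the summed family FPKM was 1688 in the lowest library and 2227 in the highest.

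Nearly every testable member changed over pellicle development, as did nearly all genes. Of the 59 genes, 36 passed the filter on low counts and 23 could not be tested. In edgeR's quasi-likelihood F-test over the 7 stages, with Benjamini-Hochberg adjustment over the whole table, 35 of the 36 changed, beside 97.7% of all genes. The exception was the AGL18-like gene (5D), with stage means of 1.02 to 1.81 CPM (adjusted p = 0.63). A range of at least 2-fold between the highest and lowest stage was met by 34 members, beside 75.7% of all genes, and at least 4-fold by 23. The share of all genes with a 4-fold range is not given here. In bulk samples such as these, fewer cells of a type and less RNA per cell cannot be told apart.

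Between the last and the first stage the family split. At 19W, relative to 8W, 11 members rose and 15 fell (edgeR quasi-likelihood test, adjusted p under 0.05), while 39% of all genes rose and 38.8% fell. The 26 calls make 72.2% of the 36 tested members, close to the 77.8% of all genes. The libraries of both stages did not overlap for any of the 26, and the share of all genes without overlap is not given here. The median log2 change was -0.32 over the 36 members and -0.01 over all genes. Changes of at least 2-fold were 9 of the rises and 12 of the falls, again without a share over all genes. All 3 AGAMOUS-clade genes rose, none of the 4 tested type I genes did and 3 of those fell. The AGL29-like gene among those 3 passed the count filter only through its 8W libraries (16, 16 and 13 reads). Its fall from 8W thus gives no support for a direction of the clade. Of the B and B-sister genes 1 rose and 3 fell, of the SVP genes 2 of 3 rose, of the MIKC-star genes 2 rose and 1 fell, and of the AGL17 genes 2 of 5 fell. All calls that could be tested again held when any single library was left out. Over the same pair of stages the dividing-tissue list, of which 4 of 28 genes were at 0 in each stage, had 2 rises and 17 falls among 21 tested genes (0 and 18 by library sizes alone) and summed to 295 CPM in 19W pellicles and 418 in those of 8W. That list was drawn by product name and holds 2 genes for calcyclin-binding protein, which is no cyclin. Both are among the 17 falls: in 19W pellicles Jr5SG00092500 averaged 109.8 CPM against 128 in 8W pellicles, and Jr5DG00113500 averaged 37.2 CPM against 55.3. The part of the list in the members' calls was not tested.

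**Figure D2:**
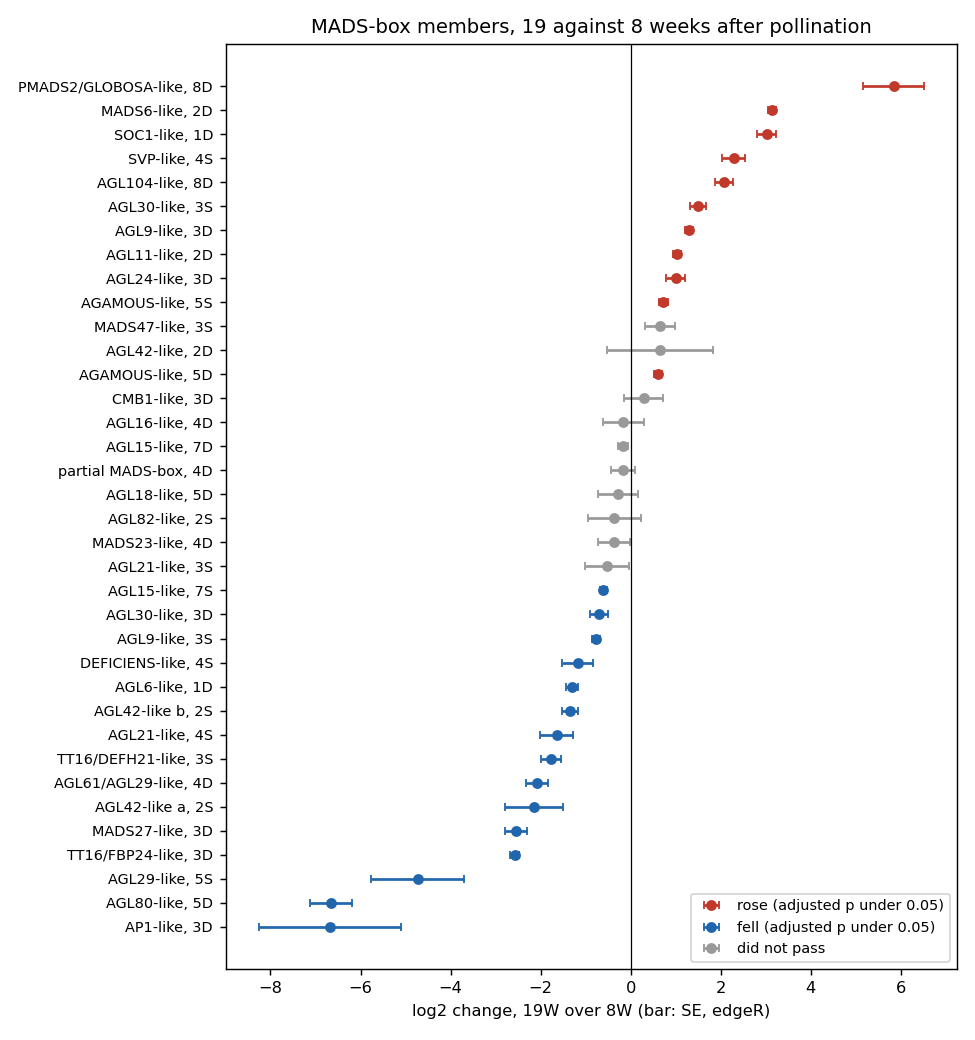
Log2 change of the 36 tested members at 19W over 8W with its SE, red for the 11 that rose, blue for the 15 that fell and grey for the others. The PMADS2/GLOBOSA-like gene lies farthest right, and the type I AGL80-like gene and the AP1-like gene farthest left, the AP1-like value being a fitted one against 0 reads at 19W.

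The AGL11-like gene, the walnut namesake of the ovule and seed coat factor SEEDSTICK, rose to its highest level at 19W. Its TMM-scaled counts were 1004, 881 and 922 CPM at 19W, against 451, 474 and 451 CPM at 8W (log2 change 1.03 ± 0.09 SE, edgeR adjusted p = 3.18e-10). Every 19W library was above every 8W library. The course was not steady: the mean level was 458 CPM at 8W, 329 in 9W and 375 in 11W libraries, stood at 768 and 868 CPM in 13W and 15W libraries, and was 354 CPM at 17W before the 936 CPM of 19W. At 17W the libraries gave 354, 363 and 346 CPM, against 876, 856 and 872 CPM at 15W (log2 change -1.29 ± 0.09 SE, edgeR adjusted p = 2.33e-11). The 17W values thus lay below those of the stages on either side, without overlap.

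The AGAMOUS-like genes, which in *Arabidopsis* give stamens and carpels their identity, moved less. The copy on 5S stood at 153, 165 and 166 CPM at 19W, against 95.8, 104.4 and 93.8 CPM at 8W (log2 change 0.72 ± 0.10 SE, edgeR adjusted p = 5.66e-07). The copy on 5D stood at 179.7, 191 and 183 CPM at 19W, against 123, 121 and 119 CPM at 8W (log2 change 0.61 ± 0.09 SE, edgeR adjusted p = 6.98e-07). Neither copy's 19W libraries overlapped those of 8W. The 5S copy was highest at 17W, at 179.7, 185 and 201 CPM, the stage at which the AGL11-like gene had fallen.

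**Figure D3:**
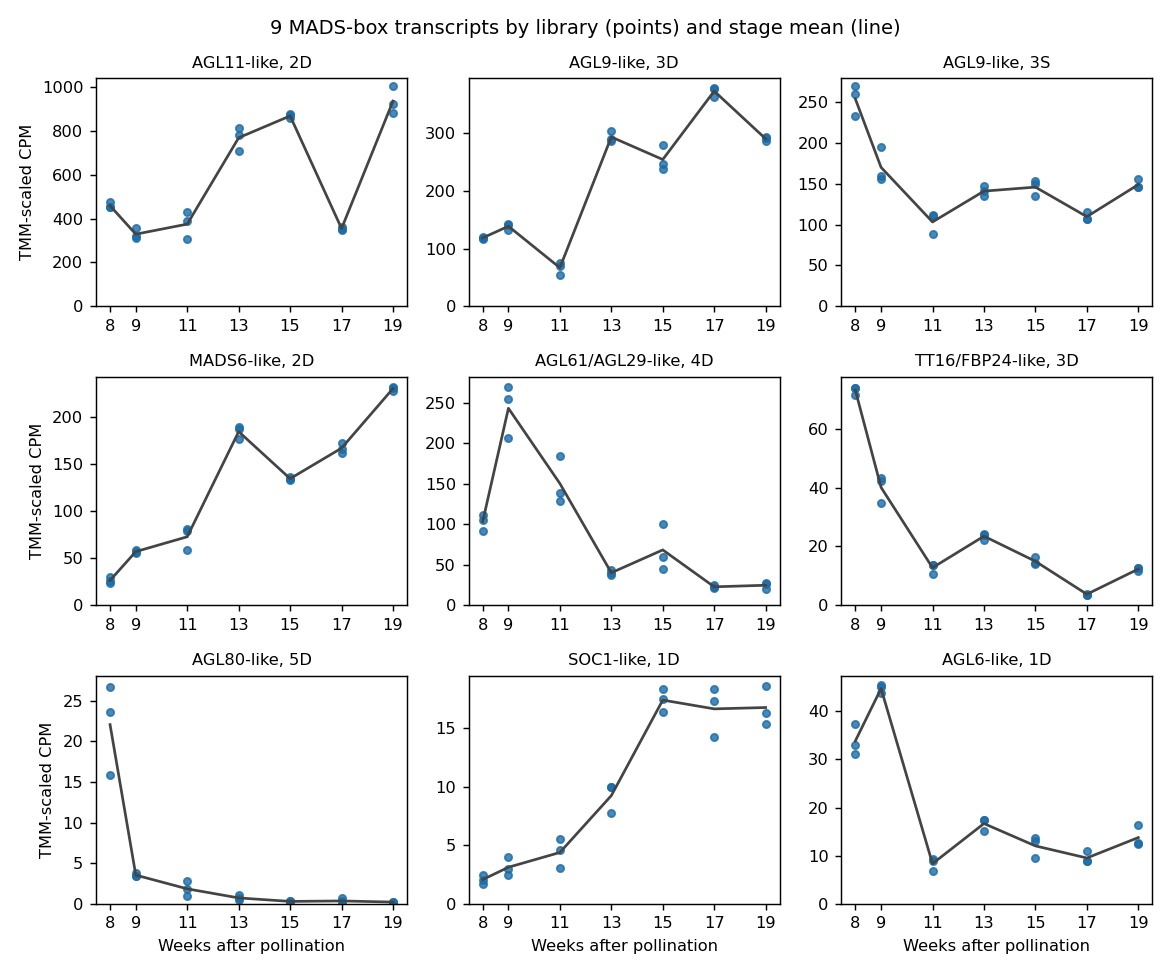
TMM-scaled CPM (linear axes, each from 0) of 9 MADS-box genes by weeks after pollination, with a point per library and a line through the stage means. The AGL11-like gene drops at 17W, the AGL9-like gene on 3D is higher and the one on 3S lower at 19W than at 8W, and the AGL80-like gene is near 0 from 13W on.

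The AGL9-like genes, named for SEPALLATA 3, differed in direction between 19W and 8W. The gene on 3D stood at 286, 292 and 293 CPM at 19W, against 119, 119.6 and 117 CPM at 8W (log2 change 1.29 ± 0.08 SE, edgeR adjusted p = 7.66e-13). The gene on 3S stood at 156, 146 and 146 CPM at 19W, against 259.8, 270.2 and 233 CPM at 8W (log2 change -0.77 ± 0.09 SE, edgeR adjusted p = 3.75e-08). All 19W libraries were higher than those of 8W for the 3D gene and lower for the 3S gene. The CMB1-like gene on 3D, named for a carnation SEPALLATA relative, was not called (log2 change 0.29 ± 0.44 SE, edgeR adjusted p = 0.555).

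The AGL6-clade genes also diverged. The MADS6-like gene on 2D (Jr2DG00091000, chromosome 2D, 8567289 to 8571837) stood at 228, 232 and 232 CPM at 19W, against 23.2, 26.1 and 29.4 CPM at 8W (log2 change 3.14 ± 0.09 SE, edgeR adjusted p = 9.11e-19). It was lowest at 8W and highest at 19W, with libraries that did not overlap between those stages. The AGL6-like gene on 1D stood at 16.3, 12.3 and 12.7 CPM at 19W, against 33.0, 37.3 and 31.1 CPM at 8W (log2 change -1.30 ± 0.14 SE, edgeR adjusted p = 5.54e-09). Its highest libraries were those of 9W, at 45, 43.8 and 45.4 CPM.

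The B-sister genes fell. TT16 acts in the seed coat of *Arabidopsis*, where its loss lowers proanthocyanidin accumulation, and 2 walnut genes carry its name. The TT16/FBP24-like gene on 3D (Jr3DG00159800, chromosome 3D, 22560108 to 22566520) stood at 12.6, 11.5 and 12.7 CPM at 19W, against 73.9, 74.2 and 71.7 CPM at 8W (log2 change -2.58 ± 0.10 SE, edgeR adjusted p = 1.89e-16). It was lower still at 17W, at 3.92, 3.58 and 3.54 CPM. The TT16/DEFH21-like gene on 3S stood at 4.42, 6.0 and 3.86 CPM at 19W, against 16.8, 14.9 and 17.0 CPM at 8W (log2 change -1.77 ± 0.22 SE, edgeR adjusted p = 8.40e-08). For both genes every 8W library was above every 19W library. The proanthocyanidin enzyme list, of which 3 or 4 of 15 genes were at 0 in a stage, had its highest summed level at 9W, at 459 CPM, and averaged 339.8 CPM in 19W pellicles and 241 in those of 8W.

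B-class genes specify petals and stamens in snapdragon and petunia, and the 2 that the rule matched were expressed at low levels. Another gene, named DEFICIENS but not matched by the rule (Jr4DG00157500), was more abundant in reads, at 56.6 ± 1.31 CPM in 19W pellicles and 47.7 ± 2.33 in those of 8W (SD, n = 3 each). The PMADS2/GLOBOSA-like gene on 8D gave 9.18, 2.96 and 3.24 CPM at 19W, against 0.0607, 0.127 and 0.0576 CPM at 8W (log2 change 5.84 ± 0.68 SE, edgeR adjusted p = 3.33e-08). These are 112, 38 and 42 reads at 19W and 1, 2 and 1 reads at 8W, and without 19W replicate 1 the log2 change was 5.12. The DEFICIENS-like gene on 4S gave 1.88, 4.44 and 4.86 CPM at 19W, against 9.05, 7.14 and 9.27 CPM at 8W (log2 change -1.18 ± 0.34 SE, edgeR adjusted p = 0.00361). The groups did not overlap for either gene, although library 1 of 19W stood apart from the other two in both. At 19W that library was the highest for the PMADS2/GLOBOSA-like gene and the lowest for the DEFICIENS-like gene.

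Genes named for flowering-time regulators were mostly low, and several rose. The SOC1-like gene on 1D, named for an *Arabidopsis* activator of flowering, stood at 18.6, 16.3 and 15.4 CPM at 19W, against 1.70, 2.42 and 2.07 CPM at 8W (log2 change 3.02 ± 0.21 SE, edgeR adjusted p = 3.25e-12). The SVP-like gene on 4S, named for a repressor of flowering, stood at 5.82, 9.67 and 9.57 CPM at 19W, against 1.40, 2.36 and 1.38 CPM at 8W (log2 change 2.29 ± 0.26 SE, edgeR adjusted p = 2.23e-08). The AGL24-like gene on 3D stood at 13.5, 14.7 and 15.0 CPM at 19W, against 8.93, 6.95 and 5.70 CPM at 8W (log2 change 1.001 ± 0.21 SE, edgeR adjusted p = 1.39e-04). None of the 3 overlapped between the stages. The MADS47-like gene on 3S was not called (log2 change 0.65 ± 0.34 SE, edgeR adjusted p = 0.0828). It passed without 8W replicate 3 (0.88, adjusted p = 0.0448) and without 19W replicate 1 (0.83, adjusted p = 0.0458).

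The AGL42-like genes of the SOC1 clade fell on 2S. The AGL42-like gene b stood at 4.18, 4.91 and 4.09 CPM at 19W, against 10.1, 12.2 and 11.2 CPM at 8W (log2 change -1.35 ± 0.17 SE, edgeR adjusted p = 1.95e-07). The AGL42-like gene a stood at 0.574, 0.234 and 0.231 CPM at 19W, against 0.789, 2.36 and 1.5 CPM at 8W (log2 change -2.14 ± 0.64 SE, edgeR adjusted p = 0.00411). The AGL42-like gene on 2D was not called (log2 change 0.64 ± 1.17 SE, edgeR adjusted p = 0.625). The AP1-like gene on 3D, named for the *Arabidopsis* floral meristem gene APETALA1, had 0 reads in all 3 libraries of 19W, against 23, 15 and 4 reads at 8W. With a floor of 3 reads per library it was at least 3.63-fold lower at 19W (edgeR adjusted p = 6.30e-04). It peaked at 9W, at 4.77, 2.50 and 3.24 CPM, the stage through which it passed the count filter.

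AGL15 is known from *Arabidopsis* embryos, and the walnut AGL15-like genes were moderately abundant. The gene on 7S stood at 61.1, 55.9 and 60.5 CPM at 19W, against 89.0, 88.9 and 93.0 CPM at 8W (log2 change -0.61 ± 0.08 SE, edgeR adjusted p = 1.72e-07), a fall without overlap. The gene on 7D stood at 29.7, 33.8 and 36.3 CPM at 19W, against 36.2, 38.0 and 38.3 CPM at 8W, with overlapping libraries and no call (log2 change -0.17 ± 0.10 SE, edgeR adjusted p = 0.128). That gene was called as lower without 11W replicate 1 (-0.22, adjusted p = 0.0452) and without 19W replicate 3 (-0.29, adjusted p = 0.0316). Scaling by library sizes alone (-0.51) or by upper-quartile factors (-0.38) also gave the call; these are the scalings that move the median of all genes, to -0.34 and -0.22.

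Genes of the AGL17 clade, whose *Arabidopsis* members ANR1 and AGL21 are known from roots, stayed low. The MADS27-like gene on 3D was the clade's leading gene in reads, at 2.62, 1.79 and 3.01 CPM at 19W, against 13.7, 16.4 and 13.4 CPM at 8W (log2 change -2.55 ± 0.25 SE, edgeR adjusted p = 1.67e-09). The AGL21-like gene on 4S stood at 0.574, 1.87 and 1.16 CPM at 19W, against 3.16, 3.25 and 4.95 CPM at 8W (log2 change -1.65 ± 0.37 SE, edgeR adjusted p = 3.44e-04). Both fell without overlap. The ANR1-like gene next to the MADS27-like gene had 2 reads over all 21 libraries, and the AGL21-like gene on 4D had 1.

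The MIKC-star genes are relatives of *Arabidopsis* genes of pollen maturation. The AGL104-like gene on 8D stood at 35.1, 36.2 and 33.0 CPM at 19W, against 10.7, 6.05 and 8.00 CPM at 8W (log2 change 2.07 ± 0.19 SE, edgeR adjusted p = 1.20e-09). The AGL30-like gene on 3S stood at 7.29, 6.55 and 7.48 CPM at 19W, against 2.55, 2.87 and 2.13 CPM at 8W (log2 change 1.499 ± 0.18 SE, edgeR adjusted p = 8.46e-08). The AGL30-like gene on 3D stood at 6.39, 4.60 and 4.55 CPM at 19W, against 8.93, 7.58 and 8.86 CPM at 8W (log2 change -0.71 ± 0.20 SE, edgeR adjusted p = 0.00303). The first 2 were higher at 19W and the last lower, each without overlap.

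Among the type I genes, the abundant one was the AGL61/AGL29-like gene on 4D (Jr4DG00040200, chromosome 4D, 4160638 to 4161216), whose NR and Swiss-Prot names point to different *Arabidopsis* genes. It stood at 27, 20 and 26.3 CPM at 19W, against 112, 105 and 91.9 CPM at 8W (log2 change -2.08 ± 0.24 SE, edgeR adjusted p = 7.73e-07). Its peak came at 9W, at 269, 206 and 254 CPM, and by 13W it was at 39.1, 43.3 and 37.2 CPM. At 15W library 1 stood apart, with 99.8 CPM against 44.6 and 59.9 CPM in the others. The call of a rise over 13W (log2 change 0.77, edgeR adjusted p = 0.0109) was lost without that library (0.39, adjusted p = 0.0713).

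The AGL80-like gene on 5D, named for the partner of AGL61 in the *Arabidopsis* central cell, was an 8W transcript. It stood at 0.246, 0.234 and 0.154 CPM at 19W, against 26.7, 23.6 and 15.9 CPM at 8W (log2 change -6.65 ± 0.46 SE, edgeR adjusted p = 5.99e-12). Stage means between these were 3.53 CPM in 9W, 1.84 CPM in 11W and 0.722 CPM in 13W libraries. The AGL29-like gene on 5S had 1 read at 19W, against 45 reads at 8W, a ratio of 34.5 for 8W over 19W, scaled to library size, with a 95% counting interval of 5.89 to 1393. It had 0 reads from 11W to 17W and passed the count filter only through its 8W libraries, where it was highest. Without 19W replicate 3, which holds that 1 read, its fitted log2 change moved to -6.80, against -4.73 with it. The 17 embryo and endosperm regulator genes summed to 302 CPM in 19W pellicles and 78.5 in those of 8W, with 7 and 5 of them at 0, and their part in the type I changes was not tested.

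Consecutive stages showed when members moved. At 9W, relative to 8W, 10 members rose and 14 fell, beside 34.4% and 31.1% of all genes (65.5% in either direction). The AGL61/AGL29-like gene rose (log2 change 1.24 ± 0.22 SE, edgeR adjusted p = 1.13e-04), and so did the AP1-like gene (log2 change 2.03 ± 0.56 SE, edgeR adjusted p = 0.00327). The AP1-like gene passed the count filter only through its 9W libraries (96, 46 and 57 reads). Its rise to 9W thus gives no support for a direction of the family. The AGL80-like gene fell (log2 change -2.64 ± 0.30 SE, edgeR adjusted p = 5.56e-08), as did the AGL21-like gene on 4S, to 0.596, 0.814 and 0.341 CPM at 9W, against 3.16, 3.25 and 4.95 CPM at 8W (log2 change -2.68 ± 0.39 SE, edgeR adjusted p = 2.24e-06). The fewest of the 24 calls kept was 20, without 8W replicate 1 or without 8W replicate 3.

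At 11W, relative to 9W, falls outnumbered rises: 5 members rose and 17 fell, beside 34.3% and 31.6% of all genes (65.9% in either direction). The AGL6-like gene fell to 6.75, 9.32 and 8.93 CPM at 11W, against 45, 43.8 and 45.4 CPM at 9W (log2 change -2.42 ± 0.14 SE, edgeR adjusted p = 4.57e-13). The AP1-like gene fell to 0.138, 0.525 and 0.400 CPM at 11W, against 4.77, 2.50 and 3.24 CPM at 9W (log2 change -3.27 ± 0.64 SE, edgeR adjusted p = 1.39e-04). Its fall from 9W likewise gives no support for a direction, as it passed the count filter only through its 9W libraries. A gene described as a partial MADS-box gene, on 4D, rose to 3.37, 4.33 and 3.40 CPM at 11W, against 1.44, 1.52 and 1.65 CPM at 9W (log2 change 1.27 ± 0.29 SE, edgeR adjusted p = 4.69e-04). The SOC1-like gene was called as higher, with overlapping libraries (log2 change 0.50 ± 0.21 SE, edgeR adjusted p = 0.0431), and 17 of 29 alternatives lost that call. Among these were the fits without 8W replicate 1, 9W replicate 1 or 3, 11W replicate 2 or 3, 15W replicate 2 or 3, 17W replicate 1 and 19W replicate 2 or 3, with log2 changes of 0.30 to 0.50 and adjusted p of 0.0501 to 0.271. Rises numbered 3 without 9W replicate 1 or 11W replicate 2 and 2 without 11W replicate 3. Without 11W replicate 1, the library rich in storage transcripts, 6 rose and 16 fell. The SOC1-like call was then kept, and the AGL11-like gene was also called as higher (0.29, adjusted p = 0.00117).

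At 13W, relative to 11W, the balance turned: 16 members rose and 5 fell, beside 32.1% and 35% of all genes (67.1% in either direction). The AGL9-like gene on 3D rose to 304, 286 and 289 CPM at 13W, against 54.7, 75.0 and 70.5 CPM at 11W (log2 change 2.14 ± 0.09 SE, edgeR adjusted p = 9.00e-16). The CMB1-like gene rose to 2.47, 2.19 and 4.46 CPM at 13W, against 0.207, 0.459 and 0.933 CPM at 11W (log2 change 2.49 ± 0.49 SE, edgeR adjusted p = 9.60e-05), and its log2 change was 3.12 without 11W replicate 3. Both rose without overlap, as did the AGL11-like gene (log2 change 1.04 ± 0.09 SE, edgeR adjusted p = 7.37e-10). The AGL61/AGL29-like gene fell (log2 change -1.91 ± 0.23 SE, edgeR adjusted p = 2.01e-06). The AGL80-like gene was called as lower with overlapping libraries (log2 change -1.34 ± 0.45 SE, edgeR adjusted p = 0.0118), and the call was lost without 11W replicate 1 (adjusted p = 0.0804) and without 13W replicate 1 (adjusted p = 0.0652). Falls numbered 3 without 11W replicate 2, 11W replicate 3, 13W replicate 1 or 13W replicate 3. Without 11W replicate 1, 14 rose and 5 fell.

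At 15W, relative to 13W, 9 members rose and 7 fell, beside 24.8% and 26.3% of all genes (51.1% in either direction). The AGL21-like gene on 4S rose to 7.19, 3.19 and 5.57 CPM at 15W, against 1.51, 1.27 and 0.836 CPM at 13W (log2 change 2.13 ± 0.36 SE, edgeR adjusted p = 3.37e-05). The AGL16-like gene on 4D rose to 1.68, 1.84 and 1.11 CPM at 15W, against 0.343, 0.494 and 0.139 CPM at 13W (log2 change 2.22 ± 0.55 SE, edgeR adjusted p = 0.00167). These AGL17-clade genes had no overlap between the stages. Among the falls, the AGL42-like gene b had a log2 change of -0.98 ± 0.18 SE and the TT16/FBP24-like gene of -0.65 ± 0.11 SE.

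At 17W, relative to 15W, 7 members rose and 10 fell, beside 29.3% and 30.8% of all genes (60.1% in either direction). The AGL82-like gene on 2S is type I by its Swiss-Prot name, while its NR name is AGL19. It rose to 3.15, 1.79 and 2.12 CPM at 17W, against 0.459, 0.779 and 0.817 CPM at 15W (log2 change 1.77 ± 0.44 SE, edgeR adjusted p = 0.00141). The AGL30-like gene on 3S rose to 8.93, 8.80 and 8.29 CPM at 17W, against 3.06, 3.90 and 4.01 CPM at 15W (log2 change 1.24 ± 0.18 SE, edgeR adjusted p = 1.98e-06). Neither overlapped. The TT16/FBP24-like gene fell (log2 change -2.02 ± 0.13 SE, edgeR adjusted p = 5.38e-12). The AGL21-like gene on 3S fell with overlapping libraries (log2 change -2.08 ± 0.56 SE, edgeR adjusted p = 0.00246), and the call was lost without 15W replicate 2 (-1.24, adjusted p = 0.0676).

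At 19W, relative to 17W, 11 members rose and 2 fell, beside 28.5% and 26.1% of all genes (54.5% in either direction). The counts were 9 and 4 by library sizes alone, and 10 and 4 by upper-quartile factors. The AGL11-like gene rose (log2 change 1.40 ± 0.09 SE, edgeR adjusted p = 1.28e-11), as did the TT16/FBP24-like gene (log2 change 1.73 ± 0.14 SE, edgeR adjusted p = 2.14e-10). The PMADS2/GLOBOSA-like gene rose by a log2 change of 3.23, against 3.91 without 17W replicate 2, or 2.51 with 19W replicate 1 left out. The AGL82-like gene fell back to 0.410, 0.312 and 0.309 CPM at 19W, against 3.15, 1.79 and 2.12 CPM at 17W (log2 change -2.75 ± 0.50 SE, edgeR adjusted p = 5.90e-05). The other fall was that of the AGL9-like gene on 3D (log2 change -0.36 ± 0.08 SE, edgeR adjusted p = 5.42e-04). Falls numbered 4 or 5 when 8W replicate 1, 9W replicate 2 or 3, 11W replicate 1 or 3, 15W replicate 1 or 2 or 19W replicate 2 was left out.

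The 3 genes named for the plant clock regulators LHY and CCA1, whose transcripts follow the time of day, moved over the same stages, and none was at 0. Their summed level was 28.9 CPM at 8W and 502 CPM one stage later, 41.6 CPM at 11W and 359 CPM by 13W. It then stood at 208 CPM (15W), 95.8 CPM (17W) and 392.4 CPM (19W). The labels used here give no hour of collection, and the part of the hour in the members' changes was not tested. Libraries of a stage were close to each other, at 476 to 549.6 CPM at 9W and 25.0 to 31.9 CPM at 8W. Over the same series the storage list averaged 18572 CPM at 11W and 1099.6 CPM at 9W, across the step at which 17 members fell.

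No member that changed at least 2-fold had its highest stage mean at 11W. Of these 34 members, 10 had their highest mean in 8W pellicles, beside 22.4% of all genes with such a range, and 6 in 9W pellicles (16% of all genes). None peaked in 11W pellicles (0 members, 13.6% of all genes) and 1 in 13W pellicles (9.24%). The 15W pellicles held 7 (7.23%), the 17W pellicles 5 (18.4%) and the 19W pellicles 5 (13.1%). The 8W group held both TT16-like genes, the AGL80-like gene and the AGL15-like gene on 7S. The AGL29-like gene, also highest at 8W, passed the count filter only through its 8W libraries. The AP1-like gene and the AGL42-like gene on 2D passed it only through their 9W libraries, where they were highest. The placing of these genes thus gives no support for a peak of the family at either stage. The 9W group held the AGL6-like, AP1-like and AGL61/AGL29-like genes, the 15W group the SOC1-like gene and 4 AGL17-clade genes, and the 19W group the AGL11-like, MADS6-like and AGL104-like genes. By library sizes alone, 12 members were highest at 8W and 5 at 15W, and the counts of the other stages stayed the same.

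**Figure D4:**
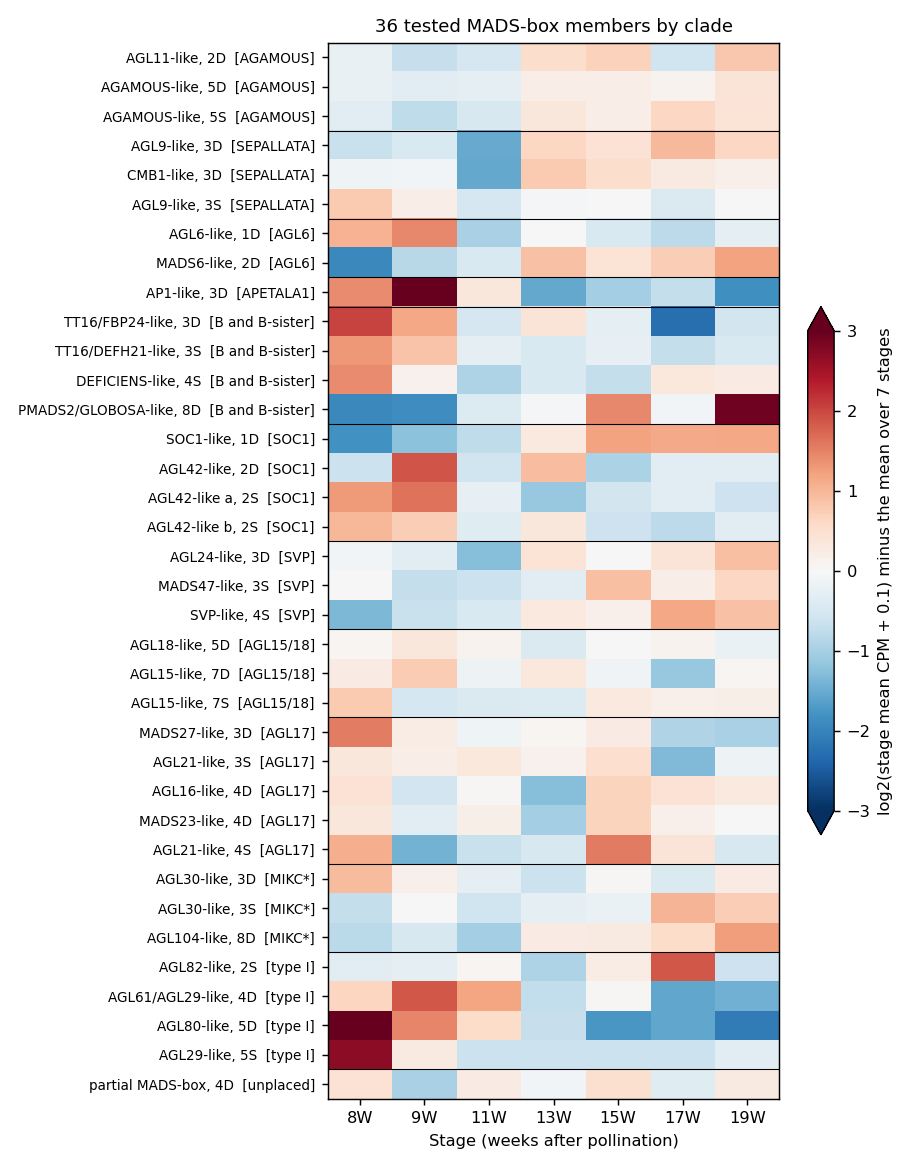
Stage mean of each of the 36 tested members, as log2(CPM + 0.1) minus its mean over the 7 stages (colour scale from -3 to 3), ordered by clade. The AGAMOUS clade is highest at 17W or 19W, both TT16-like genes at 8W, and the type I genes at 8W (AGL80-like, AGL29-like), 9W (AGL61/AGL29-like) and 17W (AGL82-like), and the 11W column holds no member at its highest mean.

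Several members share a chromosome number, and a Swiss-Prot entry or first NR hit, between D and S. For 5 such pairs, one gene on each side with reads in every library, the log2 ratio of FPKM of the D over the S gene was compared between stages. For the AGL9-like pair it was 0.70 ± 0.08 at 19W, against -1.36 ± 0.09 at 8W (SD, n = 3), so that the S gene had the higher FPKM at 8W and the D gene at 19W. For the AGL30-like pair it was -0.08 ± 0.27 at 19W, against 2.15 ± 0.33 at 8W. The TT16 pair stood at 2.08 ± 0.40 at 19W, against 2.87 ± 0.13 at 8W, and the AGL15-like pair at -1.26 ± 0.18 at 19W, against -1.69 ± 0.04 at 8W. In these 4 pairs the libraries of the stages did not overlap (exact two-sided permutation test, p = 0.1, the smallest that 3 against 3 libraries allow; adjusted p = 0.125 over 5 pairs). The AGAMOUS-like pair stood at -0.74 ± 0.05 at 19W, against -0.62 ± 0.08 at 8W (exact p = 0.2). Ratios across genes depend on the model lengths, and reads that fit both copies may be split by the counting. The SOC1-like gene on 1D had the higher FPKM of its pair in 21 of 21 libraries, at a mean of 24.5 FPKM against 0.284 FPKM for the gene on 1S.

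**Figure D5:**
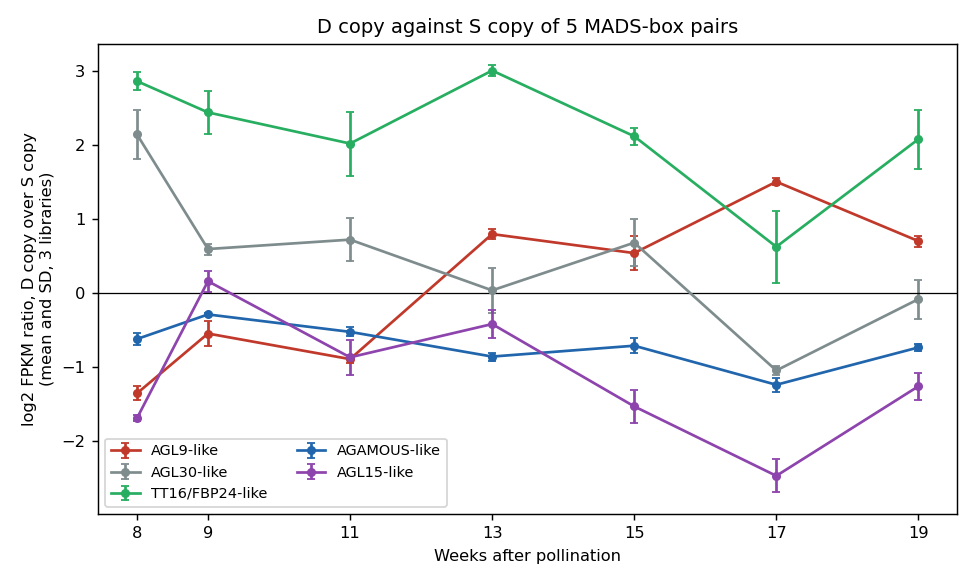
Log2 ratio of deposited FPKM, D over S gene, for 5 pairs by weeks after pollination, as the mean and SD of 3 libraries with a line at equal FPKM. The AGL9-like pair crosses the line between 11W and 13W, the TT16 pair stays above it at every stage, and the AGAMOUS-like pair stays below it.

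Some pairs of members lie close together. The SOC1-like and AGL6-like genes on 1D lie 5739 bases apart on opposite strands with no gene between them, and the SOC1-like gene rose at 19W relative to 8W while the AGL6-like gene fell. The AGL61/AGL29-like gene and the partial MADS-box gene lie 9081 bases apart on 4D. The first fell at 19W relative to 8W, and the second had a log2 change of -0.18 ± 0.27 SE, which was not called. The AGL16-like and MADS23-like genes lie 4660 bases apart on one strand of 4D, each with a model of 321 bases. Both fell at 13W relative to 11W and rose at 15W relative to 13W. The MADS23-like fall (log2 change -1.28) was lost without 11W replicate 3 (-0.67). The AGL16-like fall (-1.54) was lost without 11W replicate 2 (-1.47) and without 13W replicate 3 (-1.18). Whether such short neighbouring models are separate genes was not tested.

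Other genes with MADS-box names that the rule does not match were read in the same fit. Of 8 such genes, all tested, 3 rose and 4 fell at 19W relative to 8W (2 and 5 by library sizes alone), beside 39% and 38.8% of all genes. The DEFICIENS gene Jr4DG00157500 was called as higher (log2 change 0.25, edgeR adjusted p = 0.00825), but its change was 0.04 with upper-quartile factors (adjusted p = 0.687) and turned to -0.09 by library sizes alone (adjusted p = 0.33), and the call was lost without 19W replicate 2 (0.20, adjusted p = 0.0621). A gene named APETALA 1 (Jr6SG00000800) stood at 45.7 ± 5.47 CPM in 19W pellicles and 2.61 ± 0.647 in those of 8W (SD, n = 3 each; log2 change 4.13, edgeR adjusted p = 5.30e-17), while the AP1-like member on 3D had no reads at 19W. Of the SEPALLATA 1 genes, Jr2DG00075400 stood at 53.7 ± 4.59 CPM in 19W pellicles and 97.9 ± 6.32 in those of 8W (log2 change -0.87, edgeR adjusted p = 7.29e-08). Jr2SG00050800 had a log2 change of 0.08 (edgeR adjusted p = 0.358), which was not called, against -0.25 by library sizes alone (adjusted p = 0.00819).

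Genes of partners and of neighbouring pathways moved both ways. Of 26 genes named LEUNIG, LEUNIG_HOMOLOG or BEL1-like homeodomain, after proteins known in *Arabidopsis* to work with MADS-box proteins, 23 were tested. At 19W relative to 8W 12 rose and 10 fell (7 and 11 by library sizes alone), beside 39% and 38.8% of all genes, with a median log2 change of 0.26, against -0.01 over all genes. BEL1-like homeodomain protein 1 (Jr5SG00016500) stood at 483 ± 31.4 CPM in 19W pellicles and 229 ± 15.4 in those of 8W (log2 change 1.08, edgeR adjusted p = 2.57e-10). BEL1-like homeodomain protein 7 (Jr3DG00061200) stood at 158 ± 12.7 CPM in 19W pellicles and 391.6 ± 21.5 in those of 8W (log2 change -1.31, edgeR adjusted p = 7.62e-13). Of the 23, each relative to the stage before, 12 rose and 3 fell at 9W, beside 34.4% and 31.1% of all genes, and 4 rose and 16 fell at 11W (34.3% and 31.6%). At 13W 17 rose and 2 fell (32.1% and 35%), at 15W 1 rose and 16 fell (24.8% and 26.3%), at 17W 14 rose and 2 fell (29.3% and 30.8%), and at 19W 1 rose and 13 fell (28.5% and 26.1%).

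Of 64 genes named for flowering regulators, 44 were tested, of which 13 rose and 22 fell at 19W relative to 8W (8 and 25 by library sizes alone; median -0.26), beside the same 39% and 38.8% of all genes. Among them, squamosa promoter-binding-like protein 14 (Jr4SG00077300) stood at 229.8 ± 13.4 CPM in 19W pellicles and 77.0 ± 3.38 in those of 8W (log2 change 1.58, edgeR adjusted p = 2.72e-16), and squamosa promoter-binding-like protein 1 (Jr4DG00132900) had a log2 change of -0.53. Of 16 ovule and fruit patterning genes, 11 were tested, of which 3 rose and 4 fell (median 0.28). Both leading genes named SPATULA, a carpel factor of *Arabidopsis*, rose, Jr8DG00055800 to 33.7 ± 1.92 CPM at 19W, against 5.06 ± 0.945 CPM at 8W, and Jr1DG00015700 by a log2 change of 0.66. Of 15 proanthocyanidin enzyme genes, 11 were tested, of which 4 rose and 5 fell (2 and 5 by library sizes alone; median 0.29). Anthocyanidin reductase (Jr5DG00075400), which makes flavan-3-ol units, stood at 146 ± 25.1 CPM in 19W pellicles and 37.1 ± 1.41 in those of 8W (log2 change 1.97, edgeR adjusted p = 1.52e-11), while leucoanthocyanidin dioxygenase (Jr6DG00150000) had a log2 change of -0.73.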

How the data were processed

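Pellicle RNA was sequenced from 21 libraries at 7 stages after poly(A) selection and rRNA removal, paired-end and stranded, per the labels' protocols, whose text speaks of 16 libraries while 21 samples are named. The tools listed, per the submitters' processing notes, are HISAT2, Cufflinks, FastQC and DESeq2, with no role stated. Which genome build, annotation and read counter were used, and whether strand was counted, is not given in the sources used here. Reads of near-identical copies and antisense genes may thus be mixed. No member overlaps another gene of the table. Raw read counts, whole numbers for each gene and library, were deposited, per the file headers. The authors' FPKM columns follow from them: a count divided by length and column total gives each value with a largest relative deviation of 5.15e-15. FPKM served for levels between genes, and 0 per-sample columns were left unmapped. Names are the table's NR and Swiss-Prot texts, and 0 IDs matched the reference gene table.

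Counts of all genes were fitted in R 4.3.3 with edgeR 4.0.16 (limma 3.58.1): filterByExpr (minimum count 10), TMM factors, and a quasi-likelihood model, robust, of 7 stage means over all 21 libraries (biological coefficient of variation 0.102). P-values are two-sided and adjusted by Benjamini-Hochberg over the 21707 genes tested, with a threshold of 0.05. The code was tested on simulated data. Counting intervals (95%, exact Poisson) and the floor of 3 reads cover counting error only. Replicates of a stage differed by more than sampling noise (chi-square per degree of freedom 3.07 to 27.0), so none were merged. Alternatives were RLE and upper-quartile factors, library sizes alone, DESeq2 1.42.0, no filter, a minimum of 1 CPM in 3 libraries, replicate number as a block, fits of the 6 libraries compared, a 4-fold range for the stage of highest level, and leaving out each library.

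The members and lists were chosen with earlier results of these data known. Members described with values are the 15 with the highest mean FPKM, the 6 largest rises and 6 largest falls at 19W against 8W and the 2 of each for consecutive pairs among called genes with at least 1 CPM, and each clade's member with the most reads. From each pathway list the 2 genes with the most reads are named. The other members, genes outside the rule and marker lists were named after their values were seen. In some lists, name matches inside longer, unrelated names were dropped; the dividing-tissue list was left as its name pattern gave it.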

Additional observations from a re-analysis of the deposited data

How the results depend on the processing

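The direction of every 19W against 8W change named for a called member, and its side of the threshold, held under all 29 alternatives in which it could be tested (25 of 26 calls could be tested with a filter of 1 CPM in 3 libraries). Members risen numbered 11 to 12 and members fallen 15 to 16 when single libraries were left out. DESeq2 called 13 rises and 15 falls. Upper-quartile factors and library sizes alone moved the median log2 change of all genes to -0.22 and -0.34, against -0.01 with TMM.

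Counts between consecutive stages moved more. Falls at 19W against 17W, 2 in the report, numbered 4 with upper-quartile factors, 4 with library sizes alone, 4 without a filter and 4 in the fit of 6 libraries, and 2 to 5 when single libraries were left out. Rises at 11W against 9W, 5 in the report, numbered 3 with library sizes alone, 2 in the fit of 6 libraries, and 2 to 6 when single libraries were left out. Falls at 13W against 11W, 5 in the report, numbered 3 to 6 when single libraries were left out. The causes of these moves between consecutive stages were not tested. A 4-fold range was met by 23 members and a 2-fold range by 34, so a stage's count of highest members can only stay or fall. With a 4-fold range, members highest at 8W numbered 6, at 15W 4 and at 17W 3, against 10, 7 and 5 with a 2-fold range. No 19W against 8W change named for a called member reversed. Among named genes outside the rule, signs turned by library sizes alone for Jr4DG00157500 (log2 change 0.25 to -0.09) and Jr2SG00050800 (0.08 to -0.25).

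The replicate numbers did not pair the libraries: over 63 same-numbered pairs the correlation of deviations ran from -0.13 to 0.10, and 8 of 21 libraries correlated best with one of their own number. With the replicate block, 11 members rose and 15 fell at 19W against 8W, and 13 rose and 3 fell at 19W against 17W. Depth limits the 23 members left untested, most of which had fewer than 100 reads in all.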
